A study of Mus musculus with 7 samples.

Results

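The left atrium (LA) was compared with the right atrium (RA) in the cells of the mouse heart that are not cardiomyocytes (CMs). Members were chosen from the deposited cell tables by zone (LA or RA) and by final cell type label, which had to be other than atrial or ventricular CM, and cells marked for exclusion were left out. Both atria of a stage and strain made 1 pair, and a pair was kept where each atrium held at least 20 such cells. This gave 30 pairs with 10893 cells, 5273 of the LA and 5620 of the RA, of 52881 cells in the tables of both strains. A further 1360 atrial non-myocytes belonged to 5 C57BL/6 stages below that minimum (E10.5, E12.5, E13.5, E14.5 and P8).

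The study dissected untreated wild-type hearts of the CD1 and C57BL/6 mouse strains into 4 chambers at daily or near-daily stages, and read single-cell RNA with droplets. CD1 contributed 18 of 18 stages, 10 embryonic (E9.5 to E18) and 8 postnatal (P0 to P9). C57BL/6 contributed 12 of 17 stages, 5 embryonic (E11.5 and E15.5 to E18.5) and 7 postnatal (P1 to P5, P7 and P9). No animal carried a mutation or received an agent, hearts of a stage were pooled, and each stage and chamber was tagged with 1 lipid-anchored DNA barcode (MULTI-seq) before pooling, so that the atria of 29 of the 30 pairs were read in the same droplet wells. A sample is thus a pool of dissected atria, and the SD over pairs holds the differences between stages as well as between pools.

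The inner wall of an atrium is lined by endocardial endothelial cells (ECs), annotated by *Npr3*, while capillaries and coronary vessels are lined by vascular ECs, annotated by *Fabp4*. Neither marker is exclusive: the paper also found *Fabp4* in endocardial ECs of late embryonic and neonatal hearts, and *Npr3* in epicardial cells. Epicardial cells (*Wt1*, *Tbx18*) form the outer layer and give rise to fibroblast-like cells (*Postn*) and to the mural cells of vessels, which are pericytes (*Pdgfrb*) and smooth muscle cells (SMCs, *Myh11*). The atria have different origins: the LA takes up tissue around the pulmonary vein, and the RA takes up the sinus venosus.

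The depth and the zone labels were examined first. Samples held 22 to 736 non-myocytes in the LA and 33 to 590 in the RA, and 8 of the 60 samples held fewer than 50. The authors aimed at equal cell numbers per sample, so shares among the cells are compared here and cell numbers are not. No gene values were used, and the types could not be set against their markers. The CMs gave a check of the labels. In 45 of 60 samples 5% or fewer of the CMs were annotated as ventricular. In 5 pairs (CD1 E9.5, E10.5, E11.5 and P2, and C57BL/6 E11.5) 10% or more were ventricular in an atrium, up to 43 of 44 in the LA of CD1 E9.5. Some of these counts were small, with 4 of 5 LA and 1 of 2 RA CMs at CD1 E10.5. They were 1 of 10 in the LA of CD1 E11.5, and 2 of 2 and 3 of 3 in the atria of C57BL/6 E11.5. The paper states that its atrioventricular canal cluster of ventricular CMs also held atrial CMs at E9.5 and E10.5. A wrong zone label and the annotation of the CMs cannot be told apart there. In the CD1 LA at P2 that came with the E9.5 to P3 experiment, 26 of 40 CMs (65.0%, exact 95% interval 48.3 to 79.4%) were ventricular, against 0 of 165 in its RA. Results that rest on these pairs are given with and without them. Sub-clusters of atrial CMs that drew at least 90% of their cells from 1 atrium placed both atria on their own side in 18 of the 21 pairs with at least 5 such cells per atrium. The other pairs were CD1 E11.5 and CD1 E12.5, where 9 of 9 such LA cells fell on the RA side in each, and C57BL/6 E16.5, where 6 of 12 did. These sub-clusters were picked by the zone labels of the same cells, so agreement was largely built in. The 18 pairs are thus no test of the labels. Cell barcodes were shared between wells by 29 of the CD1 and 32 of the C57BL/6 atrial non-myocytes.

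No cell type differed in share between the atria past the threshold. Of the 10 types found in both strains, 0 passed the test over the 30 pairs (background 0% of the types tested; two-sided sign-flip permutation test with Benjamini-Hochberg adjustment over 10 types, threshold 0.05), and 1 had an unadjusted p under that threshold. That type was the vascular ECs, at a mean of 2.67% ± 2.24 (SD, n = 30 pairs) of the LA non-myocytes and 4.80% ± 3.93 of those of the RA. The difference was -2.13 points ± 4.195, with the higher share in the RA in 20 pairs, in the LA in 8, and ties in 2 (permutation p = 0.00682, adjusted p = 0.0682).

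Vascular ECs ranged from 0 to 9.79% of the LA samples (median 2.34%) and from 0 to 16.1% of the RA samples (median 4.14%), so the groups overlapped. Among all cells of the pairs they were 146 of 5273 in the LA and 298 of 5620 in the RA. The widest gaps toward the RA were at CD1 P0, with 10 of 378 cells in the LA (2.65%, interval 1.28 to 4.81%) and 37 of 236 in the RA (15.7%, interval 11.3 to 20.96%), and at C57BL/6 P9, with 2 of 65 (3.08%) against 48 of 299 (16.1%). The widest gap toward the LA was at CD1 P2, with 23 of 235 (9.79%) against 18 of 590 (3.05%). This is 1 of the pairs with ventricular CMs: in the E9.5 to P3 experiment 18 of its 121 LA cells were vascular ECs, and in the P2 to P9 experiment 5 of 114 were.

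Without CD1 P2 the vascular EC difference was -2.43 points (adjusted permutation p = 0.0091), and without all 5 pairs with ventricular CMs it was -2.79 points over 25 pairs (adjusted p = 0.0038). Leaving out 4 other single pairs (CD1 E11.5, CD1 E16.5, CD1 P4 or C57BL/6 E15.5) also brought the adjusted permutation p under the threshold, and over the 30 such fits it ran from 0.0091 to 0.138. The difference had the same sign in both strains, at -1.94 points ± 4.53 in CD1 (n = 18, adjusted permutation p = 0.528) and -2.41 points ± 3.81 in C57BL/6 (n = 12, adjusted p = 0.131), and in 4 of the 5 experiments. The exception was the CD1 P2 to P9 experiment, where the mean difference was 0.291 points over 5 pairs. In the C57BL/6 P5 to P9 experiment it was -6.92 points over 3 pairs, with the RA higher in each.

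**Figure D1:**
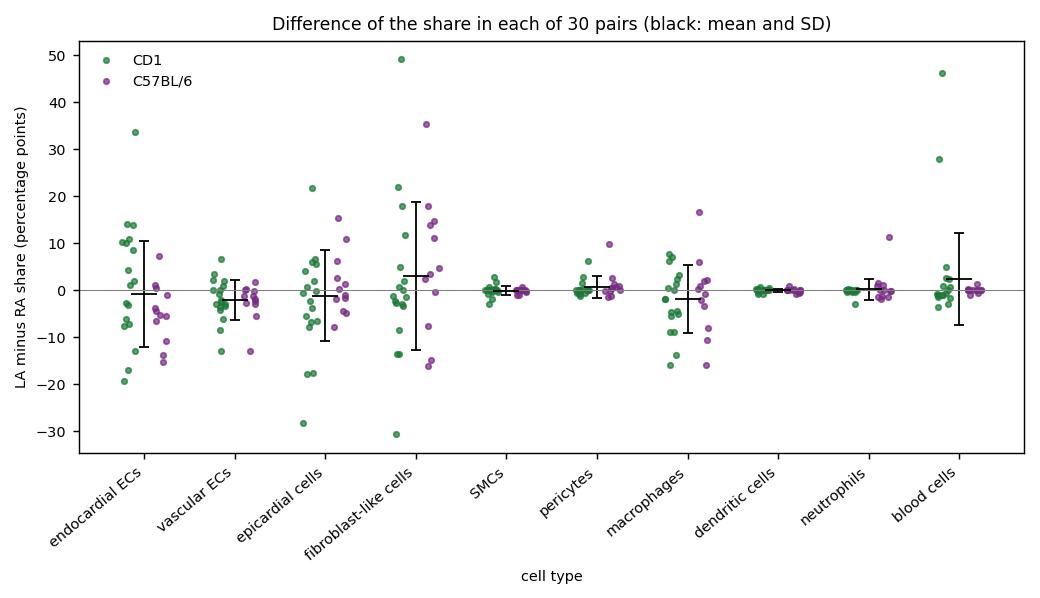
LA minus RA share, in percentage points of the non-myocytes, for each of 10 cell types. Each point is 1 pair of stage and strain (18 CD1, 12 C57BL/6), and the black marks are the mean and SD over the 30 pairs. Vascular ECs lie below 0 in 20 pairs and above it in 8, and fibroblast-like cells spread from -30.6 to 49.1 points.

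The 3 most abundant types did not show a difference beyond the spread between pairs. Fibroblast-like cells were 30.7% ± 20.4 of the LA and 27.6% ± 14.8 of the RA non-myocytes, a difference of 3.09 points ± 15.8 (adjusted permutation p = 0.644). Single pairs pointed strongly in opposite directions, from -30.6 points at CD1 P9 to 49.1 points at CD1 P7, and 15 pairs were higher in the LA against 14 in the RA. Endocardial ECs were 29.4% ± 13.7 of the LA and 30.2% ± 11.2 of the RA cells, a difference of -0.831 points ± 11.2 (adjusted permutation p = 0.769) that ran from -19.3 points at CD1 P7 to 33.7 points at CD1 E13.5. Epicardial cells were 14.2% ± 13.4 and 15.4% ± 12.4, a difference of -1.18 points ± 9.65 (adjusted permutation p = 0.769). The epicardial difference ran from -28.2 points at CD1 E11.5 (10 of 58 LA and 50 of 110 RA cells), a pair with ventricular CMs, to 21.7 points at CD1 E12.5. The LA share was highest at E12.5 of CD1, at 62.2% (23 of 37 cells) against 40.5% of the RA cells (32 of 79).

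The other types were scarcer. Macrophages (*C1qa*, *Adgre1*), which settle in the heart before birth, were 9.61% ± 5.91 of the LA and 11.4% ± 7.07 of the RA cells (difference -1.83 points ± 7.29, adjusted permutation p = 0.593). Pericytes were 1.16% ± 2.26 and 0.478% ± 0.540 (difference 0.682 points ± 2.25, adjusted permutation p = 0.502), with 53 cells in all LA samples and 27 in all RA samples. Centred log2 ratios weigh a change in a rare type as much as one in a common type. On these ratios, with 0.5 added to each count, the pericyte difference was 0.66 (adjusted permutation p = 0.0272), higher in the LA. Pericytes were found in 17 LA and 17 RA samples, and 8 pairs held none in either atrium. Where the count was 0, the ratio rested on the added 0.5 and the counts of the other types. The RA held more non-myocytes in 19 pairs and the LA in 11. The ratios thus cannot show that pericytes were more common in the LA, and the part of the added count was not tested. SMCs differed by -0.0854 points ± 0.972 and numbered 11 in the LA and 17 in the RA. Dendritic cells differed by -0.0374 points ± 0.381, with 8 and 11 cells, and neutrophils (*S100a9*) by 0.153 points ± 2.27, with 26 and 34. No cell of these 3 types was found in either atrium in 14, 16 and 14 pairs, and a count of 0 allows a share of up to 3 cells of the sample's total, which was 0.783 to 13.6% in the samples where 1 of them was at 0. Blood cells (*Hba-a1*) differed by 2.36 points ± 9.84 (adjusted permutation p = 0.644), and their share reached 91.7% of the LA and 76.4% of the RA cells at E10.5 of CD1 and E11.5 of C57BL/6. Their difference ran from -3.59 points at CD1 E9.5 to 46.1 points at CD1 E11.5, both pairs with ventricular CMs. T, B and NK cells were annotated in CD1 alone, with 2, 1 and 0 cells in the LA and 5, 4 and 1 in the RA, and were not tested.

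**Figure D2:**
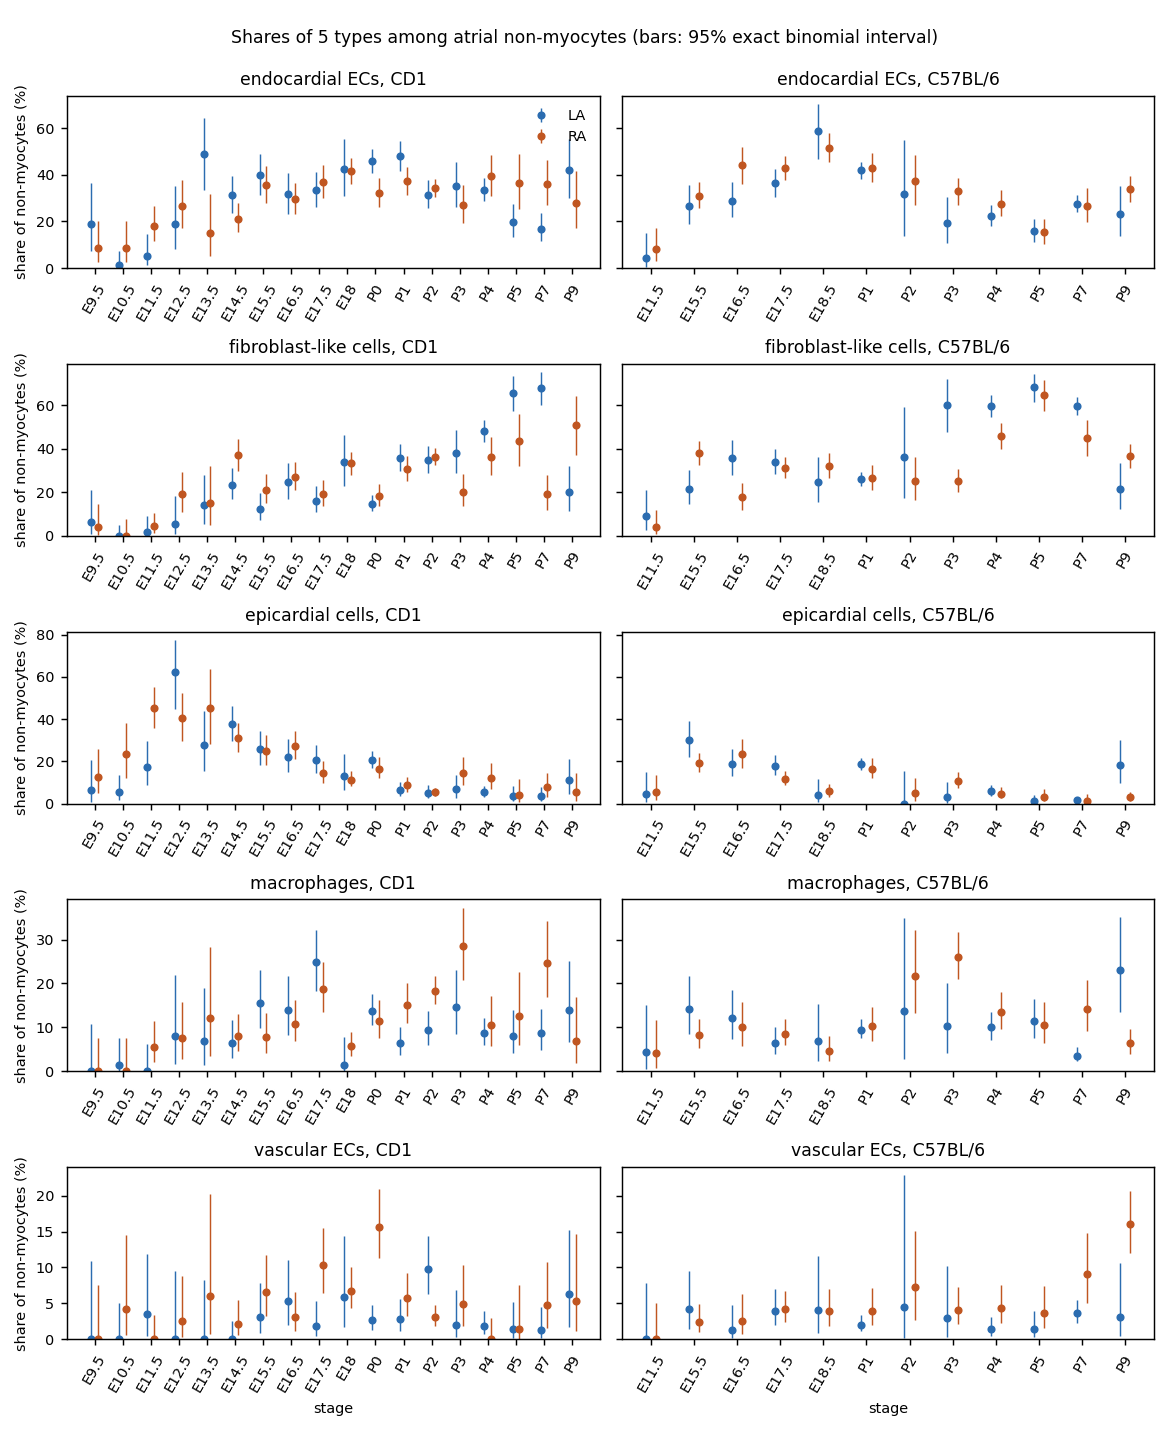
Share of the non-myocytes (percent, vertical axis) in the LA and RA by stage (horizontal axis) for 5 types, with CD1 on the left and C57BL/6 on the right; bars are exact 95% binomial intervals, which cover counting error only. Epicardial cells reach 62.2% (CD1 LA, E12.5), fibroblast-like cells reach 68.2% (C57BL/6 LA, P5), and the vascular EC points of the RA lie above those of the LA in 20 of 30 pairs.

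The strains and the periods were set against each other next. Within CD1 and within C57BL/6, 0 of 10 types passed the test (background 0% in each), and the C57BL/6 pairs had endocardial ECs at 28.1% ± 13.8 in the LA and 32.9% ± 12.4 in the RA, higher in the RA in 9 of 12 pairs (-4.80 points ± 6.39, permutation p = 0.0262, adjusted p = 0.131). In CD1 the same difference was 1.81 points ± 13.01. The difference between the strains was not past the threshold for any of the 10 types (label permutation test, adjusted p = 0.8025 for each), and 0 had an unadjusted p under the threshold. In the 15 embryonic and the 15 postnatal pairs 0 types passed (background 0% in each).

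Postnatal and embryonic pairs were compared with labels permuted within strain. Fibroblast-like cells were 43.9% ± 18.7 of the postnatal LA and 34.9% ± 13.3 of the postnatal RA cells (8.92 points ± 19.2), against -2.74 points ± 8.57 in the embryonic pairs. The difference of 11.7 points between the periods had permutation p = 0.0392 and adjusted p = 0.145. Macrophages went the other way after birth, at 11.03% ± 4.52 of the LA and 15.4% ± 6.95 of the RA cells (-4.37 points ± 8.94, higher in the RA in 11 of 15 pairs), against 0.704 points ± 4.06 before birth (adjusted permutation p = 0.145 for the change). Postnatal pericytes were higher in the LA in 11 of 15 pairs (1.43 points ± 2.99, adjusted permutation p = 0.190). None of the 10 types passed the adjusted test of the periods, and 2 (fibroblast-like and dendritic cells) had an unadjusted permutation p under the threshold. Shares of 1 sample sum to 100%, so types cannot move independently.

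Non-myocytes made up 62.2% ± 20.7 of all LA cells and 59.5% ± 23.7 of all RA cells. The difference of 2.75 points ± 18.9 was not past the threshold (permutation p = 0.439; higher in the LA in 19 of 30 pairs).

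Within the types, differences between the atria passed the test in both strains. The authors divided each broad class of cells (endocardial ECs, epicardial cells, fibroblast-like cells, immune cells) into numbered sub-clusters, separately in each strain, so a number in CD1 and the same number in C57BL/6 are different groups. The fibroblast-like class also holds the pericytes and SMCs (30 of 823 LA and 24 of 836 RA cells of the class in CD1, 34 of 1199 and 20 of 947 in C57BL/6), and the immune class holds macrophages with the other white blood cells. Each sub-cluster was given as a share of its class in each atrium, in pairs with at least 10 cells of the class on both sides. In CD1 8 of 26 sub-clusters passed the test (30.8%), 3 higher in the LA and 5 higher in the RA (19.2% of those tested). In C57BL/6 3 of 17 passed (17.6%), 2 higher in the LA (11.8% of those tested) and 1 in the RA (5.88%). They lay in the endocardial, fibroblast-like and immune classes. Without the pairs with ventricular CMs 6 of these 8 passed in CD1, and the same 3 in C57BL/6. With at least 20 cells of the class on both sides the same 3 passed in C57BL/6, and in CD1 2 of the 8 did, endocardial sub-cluster 1 (26.01 points over 12 pairs, adjusted permutation p = 0.0383) and fibroblast-like sub-cluster 5 (-7.82 points over 11 pairs, adjusted p = 0.0376). The calls of endocardial sub-cluster 0 (-17.8 points, adjusted permutation p = 0.0981) and of fibroblast-like sub-clusters 3 (22.7 points, adjusted p = 0.0981) and 4 (-20.2 points, adjusted p = 0.0566) were lost, and the other 3 had too few pairs or cells to be tested. None of the 5 epicardial sub-clusters of CD1 passed, and their unadjusted permutation p under the threshold numbered 0. They were tested over 11 pairs from E11.5 to P4, with as few as 10 LA cells, so a missing call does not show that the atria are alike. The paper describes LA and RA clusters of CD1 epicardial cells and endocardial ECs, and unlike LA and RA fibroblasts, at late stages. Those clusters were not matched to the sub-clusters here. Epicardial cells of C57BL/6 had too few pairs. Shares in 1 class sum to 100%, so a gain of 1 sub-cluster lowers the others, and these calls are not independent. Sub-clusters were built from the expression of these cells, and whether one filled from 1 atrium is a distinct cell type was not tested.

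Single experiments were then left out, which also lowered the number of pairs. Without the E9.5 to P3 experiment 0 of 11 CD1 sub-clusters passed, over 7 pairs, with wider differences (endocardial sub-cluster 1 at 45.8 points, fibroblast-like sub-cluster 4 at -30.7 points, adjusted p = 0.0573 for both by exact permutation). The smallest exact permutation p of 7 pairs is 0.0156, and 3 of the 11 sub-clusters were at it, while a call needed at least 4 at or near it. Without the P2 to P9 experiment 0 of 22 passed, over 9 pairs for 20 of them, with smaller differences of the same sign (13.46 points with adjusted p = 0.694, and -13.48 points with adjusted p = 0.387, both by exact permutation). The smallest exact permutation p of 9 pairs is 0.0039, and 2 sub-clusters at it were enough for a call, while 0 were at it. A call was thus within reach of these pairs, unlike over 7 pairs. In C57BL/6 without the P5 to P9 experiment 0 of 13 passed, over 7 pairs, at 20.5 points for endocardial sub-cluster 5 and -23.6 points for fibroblast-like sub-cluster 1 (adjusted p = 0.102 for both by exact permutation). These 2 were at the smallest p of 7 pairs, and a call needed at least 5 of the 13 at or near it, so the loss of the calls over 7 pairs says little about the differences.

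**Figure D3:**
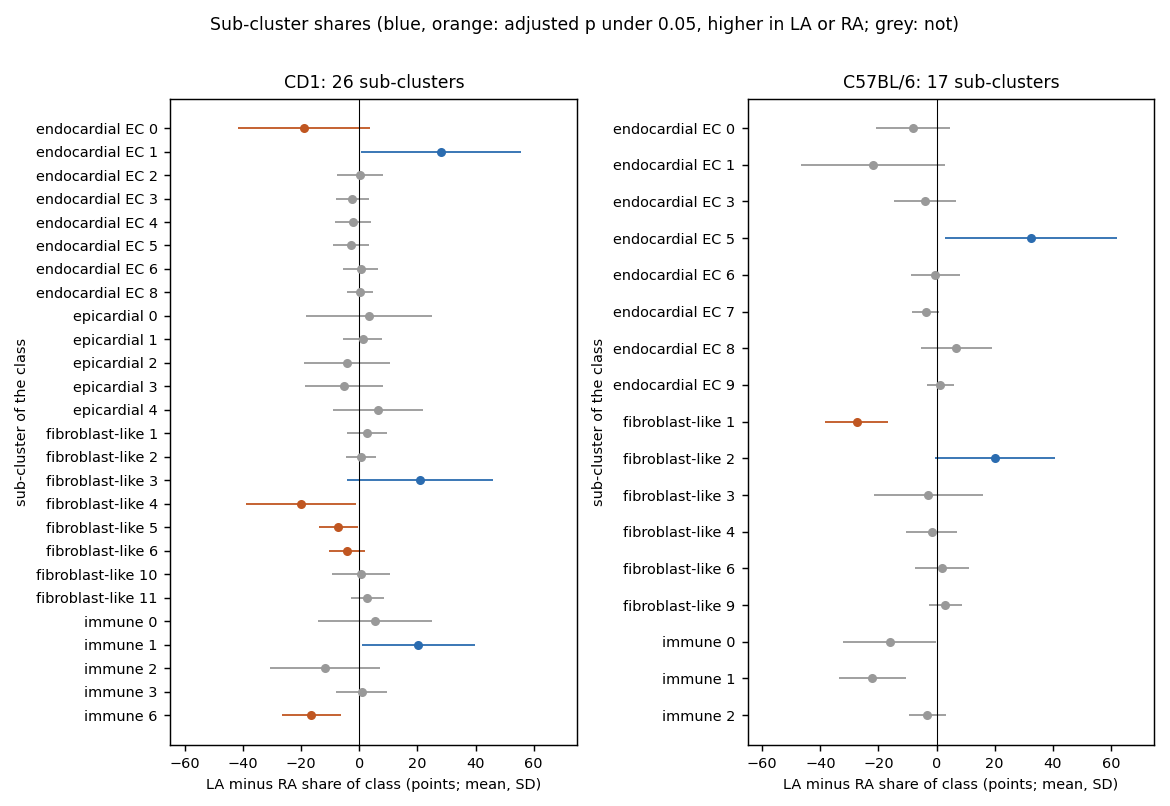
LA minus RA share of the class (percentage points, mean and SD over pairs) for the 26 sub-clusters tested in CD1 and the 17 in C57BL/6. Blue marks sub-clusters past the threshold and higher in the LA, orange those higher in the RA, and grey those that were not past it; the colored points lie in the endocardial, fibroblast-like and immune classes.

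Endocardial cells held 1 sub-cluster in each strain that lay mostly in the LA. Sub-cluster 1 of CD1 drew 299 of its 365 atrial cells from the LA (81.9%, exact interval 77.6 to 85.7%), while the LA gave 47.9% of the class. It was 36.5% ± 32.8 of the LA and 8.42% ± 7.63 of the RA endocardial cells (28.1 points ± 27.4, higher in the LA in 11 of 13 pairs, permutation p = 0.0019, adjusted p = 0.0189). Sub-cluster 5 of C57BL/6 drew 277 of 310 cells from the LA (89.4%, interval 85.4 to 92.6%), while the class held 842 LA and 939 RA cells over all C57BL/6 pairs. The sub-cluster was 35.6% ± 29.1 of the LA and 3.07% ± 3.33 of the RA endocardial cells, higher in the LA in 10 of 10 pairs (32.5 points ± 29.5, permutation p = 0.00178 over 100000 resamples, adjusted p = 0.0151). An exact test of 10 pairs cannot go below 0.00195.

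The shares differed widely between stages. In CD1 the LA share of sub-cluster 1 lay between 0 and 11.1% (median 2.78%) in the 5 embryonic pairs, and between 9.77 and 78.0% (median 63.7%) in the 8 postnatal pairs. The RA stayed between 0 and 7.69% before and between 2.63 and 23.7% after birth. By stage it was 9.77% of the LA endocardial cells at P0 (17 of 174), 64.5% at P1 (78 of 121), 23.0% at P2 (17 of 74), 75% at P3 (27 of 36), 78.0% at P4 (96 of 123), 77.8% at P5 (21 of 27), 63.0% at P7 (17 of 27) and 59.3% at P9 (16 of 27). In C57BL/6 the LA share of sub-cluster 5 ran from 2.33 to 8.91% in the 4 embryonic pairs and from 18.4 to 69.6% in the 6 postnatal pairs, with 18.4% at P1 (57 of 309) and 69.6% at P7 (112 of 161). Its RA share was at most 10.53%, and 0 of 101 RA endocardial cells at P9 belonged to it. All 8 CD1 and all 6 C57BL/6 postnatal pairs were higher in the LA, and the postnatal groups did not overlap in C57BL/6 while they did in CD1.

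A test of the period, chosen after these values were seen, compared the LA minus RA difference of postnatal with that of embryonic pairs over all sub-clusters. For endocardial sub-cluster 1 of CD1 it gave 43.8 points against 2.96 (exact permutation p = 0.00699, adjusted p = 0.0606), and for sub-cluster 5 of C57BL/6 52.5 points against 2.56 (exact permutation p = 0.00476, adjusted p = 0.0540). Neither passed the adjusted test. Period and experiment overlap in part, since the P2 to P9 and P5 to P9 experiments hold postnatal samples alone.

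The RA counterpart in CD1 was endocardial sub-cluster 0, at 15.53% ± 15.6 of the LA and 34.5% ± 22.9 of the RA endocardial cells (-19.0 points ± 22.7, higher in the RA in 9 of 13 pairs, permutation p = 0.0127, adjusted p = 0.0435). Its postnatal RA share was 40.8 to 65.4% and its postnatal LA share 0 to 59.8%. The high LA value was P0, with 104 of 174 LA (59.8%) and 46 of 76 RA endocardial cells (60.5%). This call was lost in 9 of the 13 fits that leave out 1 of its pairs (E17.5, P0 to P5, P7 or P9, adjusted permutation p up to 0.0931), and without the pairs with ventricular CMs (-18.0 points, adjusted p = 0.0857).

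CD1 P1 and P2 were read in 2 experiments each, which gives a repeat in other wells. At P1 endocardial sub-cluster 1 was 67.2% of the LA and 12.96% of the RA endocardial cells in the E18 and P1 experiment (43 of 64 and 7 of 54), and 61.4% and 11.4% in the E9.5 to P3 experiment (35 of 57 and 5 of 44). At P2 it was 42.9% and 9.63% in the P2 to P9 experiment (15 of 35 and 13 of 135), but 5.13% and 14.9% in the E9.5 to P3 experiment (2 of 39 and 10 of 67). The latter LA sample is the one in which 65.0% of the CMs were ventricular. Fibroblast-like sub-clusters 3, 5 and 6 also went against their calls at P2 of that experiment. Sub-cluster 3 held 1 of 42 LA and 2 of 44 RA cells of the class, sub-cluster 5 held 3 and 0, and sub-cluster 6 held 2 and 0. Fibroblast-like sub-cluster 4 (7 and 25) and endocardial sub-cluster 0 (11 of 39 and 41 of 67) kept their direction.

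The fibroblast-like class held sub-clusters of the LA and of the RA in both strains, given here as shares of all its cells. On the LA side stood sub-cluster 3 of CD1 and sub-cluster 2 of C57BL/6. Sub-cluster 3 of CD1 drew 310 of 336 atrial cells from the LA (92.3%, interval 88.9 to 94.9%) and was 24.8% ± 25.9 of the LA and 3.95% ± 5.67 of the RA cells of the class (20.9 points ± 25.2, higher in the LA in 9 of 13 pairs with 2 ties, permutation p = 0.0055, adjusted p = 0.0238). Sub-cluster 2 of C57BL/6 drew 441 of 463 cells from the LA (95.2%, interval 92.9 to 97%) and was 22.4% ± 22.6 of the LA and 2.24% ± 2.81 of the RA cells (20.1 points ± 20.6, higher in the LA in 9 of 10 pairs with 1 tie, permutation p = 0.00372, adjusted p = 0.0211). The pooled 92.3 and 95.2% also follow the cell numbers of the class, which were uneven at some stages. It held 184 LA and 45 RA cells at CD1 P4, and 360 and 70 at C57BL/6 P7. Over all pairs it held 823 LA and 836 RA cells in CD1, and 1199 and 947 in C57BL/6.

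Both were postnatal groups, with 98.2% of the CD1 and 98.1% of the C57BL/6 cells from postnatal samples. In CD1 the LA share was 0 of 58 cells at P0, 46.2% at P1 (42 of 91), 14.4% at P2 (13 of 90), 39.0% at P3 (16 of 41), 56.5% at P4 (104 of 184), 65.2% at P5 (60 of 92), 61.8% at P7 (68 of 110) and 29.4% at P9 (5 of 17). The RA share was highest at P3 (18.52%, 5 of 27) and was 0 of 24 cells at P7. In C57BL/6 the LA share was 10.7% at P1 (21 of 196), 18.6% at P3 (8 of 43), 47.3% at P4 (105 of 222), 54.3% at P5 (82 of 151), 59.4% at P7 (214 of 360) and 19.0% at P9 (4 of 21), and the RA share was at most 8.57%. The CD1 call was lost in 5 of the 13 fits that leave out 1 of its pairs (P1, P4, P5, P7 or P9, adjusted permutation p up to 0.0511).

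On the RA side stood sub-clusters 4 and 5 of CD1 and sub-cluster 1 of C57BL/6. Sub-cluster 4 of CD1 was 7.16% ± 7.66 of the LA and 27.3% ± 16.4 of the RA cells of the class, higher in the RA in 12 of 13 pairs (-20.1 points ± 18.9, permutation p = 0.00218, adjusted p = 0.0189). In the 8 postnatal pairs the RA lay between 29.2 and 65.6% and the LA between 0 and 13.8%, with no overlap, and in the 5 embryonic pairs the ranges were 1.47 to 18.3% and 0 to 26.1%. Its difference between the periods, -31.8 points after and -1.57 points before birth, was the only one of 26 in CD1 to pass the adjusted test (exact permutation p = 0.000777, adjusted p = 0.0202).

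Sub-cluster 1 of C57BL/6 was 6.27% ± 5.12 of the LA and 33.7% ± 10.7 of the RA cells, higher in the RA in 10 of 10 pairs (-27.4 points ± 10.8, permutation p = 0.00178, adjusted p = 0.0151). Before birth the atria were already apart: the 4 embryonic RA samples were at 14.3 to 33.7% and the LA samples at 1.85 to 13.7%, with no overlap. For example, at E15.5 it held 1 of 26 LA and 21 of 111 RA cells, and at E18.5 1 of 19 and 28 of 83. The embryonic difference was -17.1 points ± 7.66 and the postnatal difference -34.3 points ± 5.89 (exact permutation p = 0.00952, adjusted p = 0.0540). Sub-cluster 5 of CD1 was smaller in effect, at 11.7% ± 16.2 of the LA and 18.9% ± 18.4 of the RA cells, and higher in the RA in 12 of 13 pairs with 1 tie (-7.20 points ± 6.61, permutation p = 0.00043, adjusted p = 0.0112). It was mainly embryonic, with 32.6% of its cells postnatal, and it passed in all 13 fits that leave out 1 of its pairs, but not with the pairing ignored (adjusted permutation p = 0.610). Sub-cluster 6 of CD1 also passed, with 50 atrial cells in its pairs and more of them in the RA (-4.275 points, adjusted permutation p = 0.0435). At P2, a pair with ventricular CMs, it held 3 of 90 LA and 19 of 220 RA cells of the class. Leaving out any pair that held its cells put it under the minimum of 50, so it was not tested without P2. Only 2 fits that leave out 1 of its pairs could be run, and 1 of them passed.

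**Figure D4:**
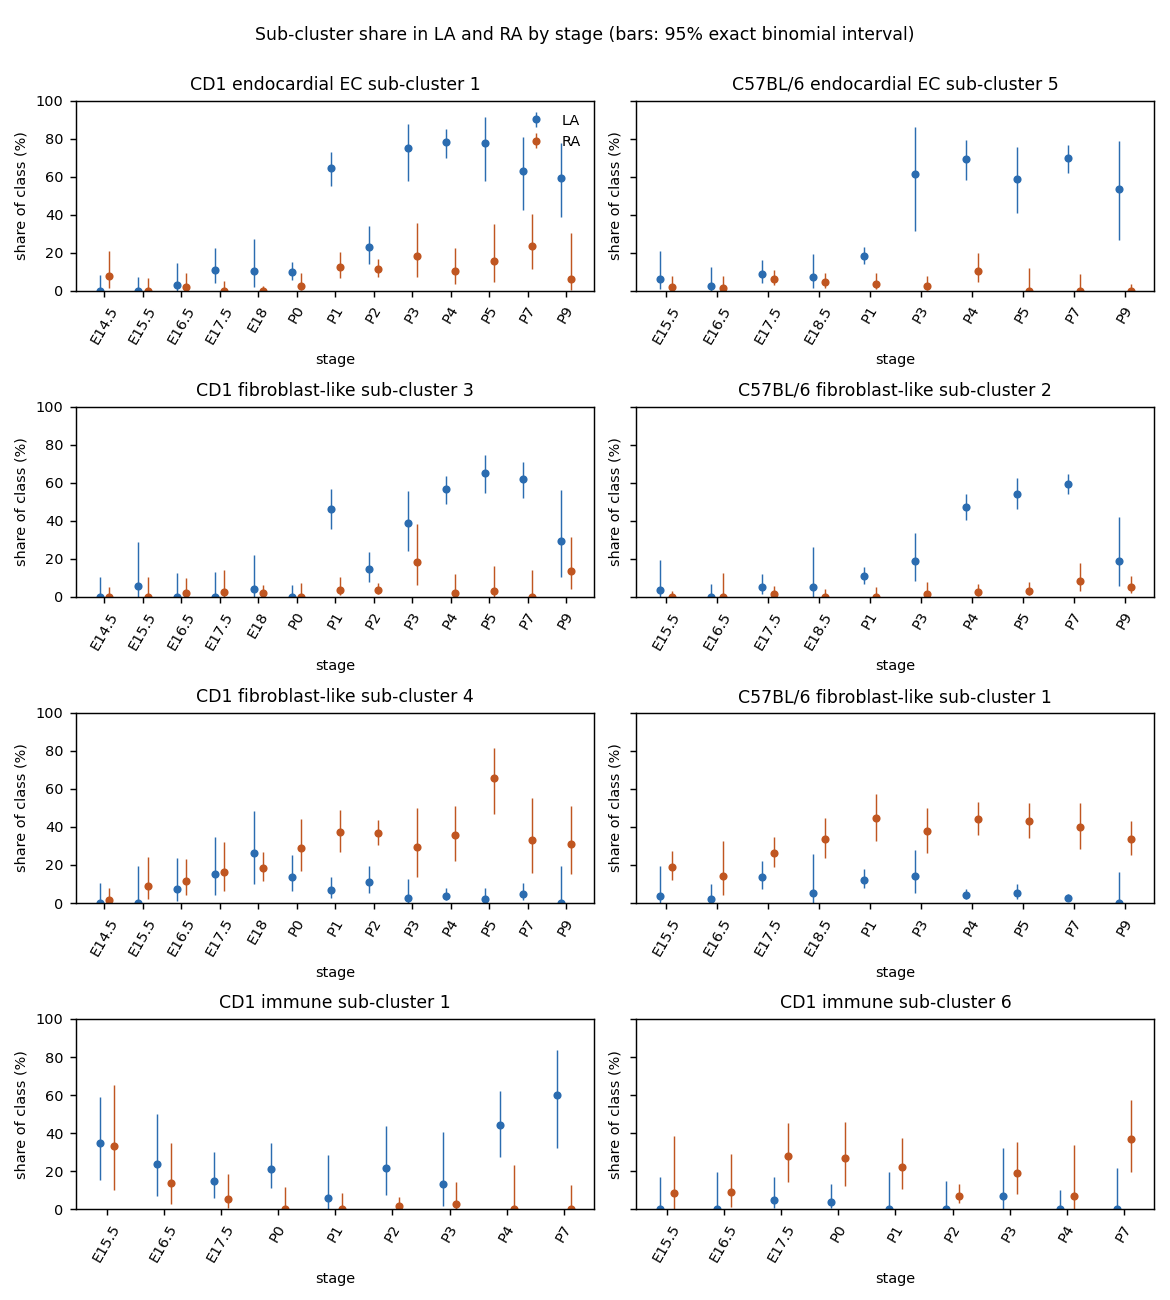
Share of its class (percent, vertical axis, exact 95% binomial intervals) of 8 sub-clusters past the threshold, in LA and RA by stage. The LA shares of the endocardial and fibroblast-like sub-clusters in the upper panels are under 12% in the embryonic samples and reach 78.0% at P4 (CD1 endocardial) and 65.2% at P5 (CD1 fibroblast-like), while fibroblast-like sub-cluster 1 of C57BL/6 lies higher in the RA at all 10 stages.

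Immune cells of CD1, mostly macrophages, had a sub-cluster on each side. Sub-cluster 1 was 26.6% ± 16.9 of the LA and 6.33% ± 11.1 of the RA immune cells, higher in the LA in 9 of 9 pairs (20.3 points ± 19.4, exact permutation p = 0.00391, adjusted p = 0.0203). Sub-cluster 6 was 1.72% ± 2.68 of the LA and 18.2% ± 10.96 of the RA immune cells, higher in the RA in 9 of 9 pairs (-16.5 points ± 10.3, exact permutation p = 0.00391, adjusted p = 0.0203), and 0.00391 is the smallest p that 9 pairs allow. The samples of sub-cluster 6 did not overlap: the RA values were 6.96 to 37.0% (median 18.9%) and the LA values 0 to 6.67% (median 0%). The cell numbers were small, 5 LA and 56 RA cells of sub-cluster 6 and 60 LA and 12 RA cells of sub-cluster 1. In C57BL/6 0 of 3 immune sub-clusters passed, and 2 had an unadjusted permutation p under the threshold. Sub-cluster 6 differed by -13.4 points in the 3 embryonic and by -18.0 points in the 6 postnatal pairs (exact permutation p = 0.548 for the change, adjusted p = 0.684).

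The ventricles held cells of each of these groups in different amounts. Of all CD1 cells of endocardial sub-cluster 1, 73.8% came from the LA, 16.2% from the RA, 7.60% from the LV and 2.45% from the RV. For sub-cluster 5 of C57BL/6 the shares were 78.9, 11.3, 7.32 and 2.54% in the same order. Fibroblast-like sub-cluster 3 of CD1 drew 81.4% from the LA and 5.77% from each ventricle, and sub-cluster 2 of C57BL/6 drew 68.3% from the LA, 16.0% from the LV and 10.2% from the RV. On the RA side, endocardial sub-cluster 0 of CD1 drew 58.9% from the RA, 33.3% from the LA, 2.67% from the LV and 5.14% from the RV. Fibroblast-like sub-cluster 4 of CD1 drew 68.2% from the RA, 7.88% from the LV and 8.48% from the RV, and sub-cluster 1 of C57BL/6 drew 71.15, 8.16 and 11.6% in the same order. Sub-cluster 5 of CD1 drew 50.9% from the RA, 18.3% from the LV and 13.1% from the RV. The last fibroblast-like sub-cluster of CD1 past the threshold, sub-cluster 6, which is given because of its values, was mainly ventricular, with 56.2% of its 292 cells from the LV, 26.03% from the RV, 15.75% from the RA and 2.05% from the LA. Immune sub-cluster 6 drew 87.0% from the RA (60 of 69 cells). Immune sub-cluster 1 was also common in the ventricles, at 19.8% of LV and 20.4% of RV immune cells, against 28.3% in the LA and 6.72% in the RA over all stages. These shares over the chambers are a description and were not tested. They cover all stages, also those without a pair, such as C57BL/6 P8 with 6 LA and 1179 RA non-myocytes. Shares of a sub-cluster also follow the cells per chamber: the C57BL/6 fibroblast-like class held 1218 LA, 1545 RA, 1458 LV and 3213 RV cells. Its sub-cluster 1 was 6.49, 40.06, 4.87 and 3.14% of these cells in the same order.

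The split was also examined within wells. Stages were kept apart, since they were present in different numbers in the LA and RA cells of a well, and a well and stage was used where both atria had at least 10 cells of the class. In C57BL/6 endocardial sub-cluster 5 was higher in the LA in 17 of 21 wells and stages and in the RA in 2, fibroblast-like sub-cluster 2 was higher in the LA in 16 of 19 and in the RA in 1, and fibroblast-like sub-cluster 1 was higher in the RA in 19 of 19. In CD1 endocardial sub-cluster 1 was higher in the LA in 14 of 21 and in the RA in 3, and fibroblast-like sub-cluster 3 in the LA in 9 of 13 and in the RA in 1. Fibroblast-like sub-clusters 4 and 5 were higher in the RA in 12 and 8 of 13, and in the LA in 1 and 2. Endocardial sub-cluster 0 was higher in the RA in 14 of 21 and in the LA in 5. The remaining wells and stages were ties. Wells of 1 experiment hold the same hearts and are technical repeats.

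UMI counts per cell (unique transcript molecules) and mitochondrial percent were compared next, as a measure of depth and of RNA quality in each type. Medians per type were taken in pairs with at least 10 cells of the type in both atria. Endocardial ECs had a lower mitochondrial percent in the LA in 20 of 23 pairs. The LA medians ran from 2.59 to 10.2% (median 5.38%) and the RA medians from 2.92 to 12.04% (median 5.87%), and the mean difference was -0.746 points ± 0.913 (permutation p = 0.00063, adjusted p = 0.00315). The other types showed no such shift past the threshold: fibroblast-like cells differed by -0.139 points ± 0.744, macrophages by -0.00186 points ± 0.514, epicardial cells by -0.296 points ± 0.720 and all non-myocytes by -0.363 points ± 1.053 (adjusted permutation p from 0.144 upward).

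Endocardial sub-cluster 1 of CD1 had a median mitochondrial percent of 4.89%, against 6.91% in the other endocardial cells of those pairs, and sub-cluster 5 of C57BL/6 4.43% against 5.67%. These medians pool stages, and both sub-clusters were mostly postnatal. Against the other LA endocardial cells of the same stage (at least 10 cells each), sub-cluster 1 of CD1 was lower in 6 of 6 stages, with differences from -0.912 to -0.186 points, while sub-cluster 5 of C57BL/6 was lower in 3 of 4, with differences from -0.301 to 0.308 points. With the sub-clusters past the threshold left out, the difference of the endocardial ECs was -0.683 points over 17 pairs (adjusted permutation p = 0.0610). With a minimum of 5 cells it was -0.326 points over 26 pairs (adjusted permutation p = 0.519), and with means over cells -0.722 points (adjusted p = 0.0544).

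Fibroblast-like cells had more UMIs in the LA. Their LA medians ran from 8724.5 to 20006 UMIs (median 11983) and their RA medians from 7615 to 19013 (median 10510), higher in the LA in 18 of 23 pairs, with a mean log2 ratio of 0.18 ± 0.23 (1.13-fold, permutation p = 0.00044, adjusted p = 0.0022). Their median doublet score was also higher in the LA in 18 of 23 pairs. Against the other LA cells of the class at the same stage (at least 10 cells each), fibroblast-like sub-cluster 3 of CD1 had the higher median UMI count in 3 of 6 stages and the higher doublet score in 4 of 6, and sub-cluster 2 of C57BL/6 had each higher in 2 of 4. The stages were unlike each other: at P7 of C57BL/6 the sub-cluster had 11614.5 UMIs and 3.18% mitochondrial against 5426 and 7.80% in the other LA cells, and at P4 it had 12878 against 15628 UMIs. With the sub-clusters past the threshold left out the log2 ratio stayed at 0.18, over 19 pairs, with adjusted permutation p = 0.1905. The part of doublets in the split between the atria was not tested. Macrophages had a log2 ratio of 0.12 ± 0.21 (adjusted permutation p = 0.0670), endocardial ECs 0.08 ± 0.40 and epicardial cells 0.10 ± 0.59.

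**Figure D5:**
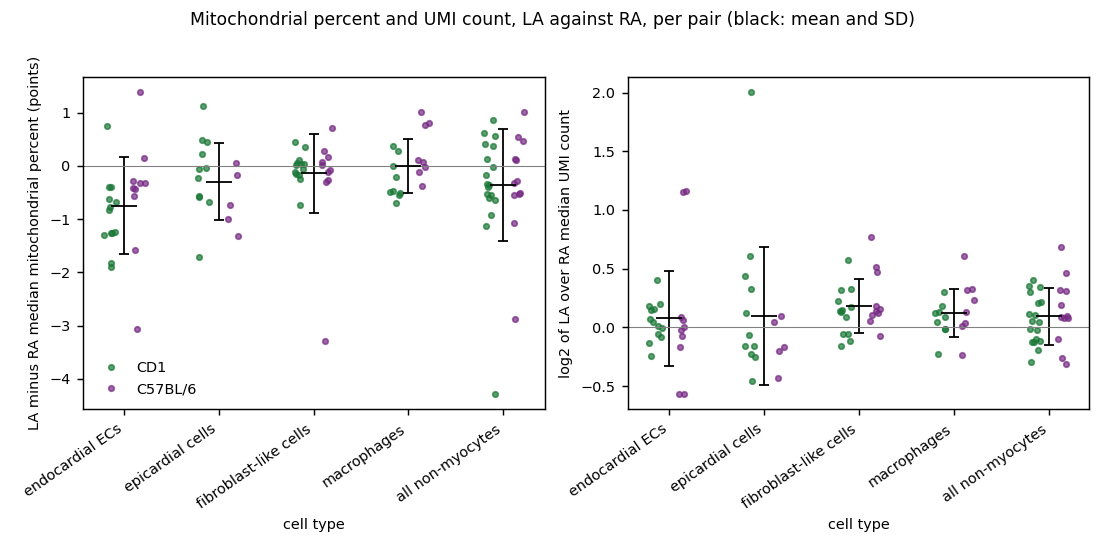
LA minus RA median mitochondrial percent (left, percentage points) and log2 of the LA over RA median UMI count (right) for 4 types and all non-myocytes. Each point is 1 pair, and the black marks are the mean and SD; endocardial ECs lie below 0 on the left in 20 of 23 pairs, and fibroblast-like cells above 0 on the right in 18 of 23.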

How the data were processed

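LA and RA cells of the CD1 and C57BL/6 cell tables were used. The authors aligned reads to GRCm38.p4 with Cell Ranger 3.1.0 per the submitters' processing notes, assigned cells to samples by lipid barcode, removed cells with barcodes of several samples and doublets within a sample, filtered cells, and annotated and sub-clustered them with Seurat. The deposited values were UMI counts per cell, the mitochondrial percent of those counts and a doublet score. The other 96 columns of both tables were not used, and the 23 atrial cells marked for exclusion were left out.

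The unit was the pair of a strain and stage, since both atria came from the same hearts and wells. Deviations of LA and RA shares from their strain means correlated at 0.464 and 0.886 for endocardial ECs (CD1, C57BL/6), 0.570 and 0.666 for fibroblast-like cells, 0.706 and 0.729 for epicardial cells, 0.0860 and 0.386 for vascular ECs and 0.544 and 0.0290 for macrophages. LA minus RA differences were tested by flipping the sign of each pair, exactly under 10 pairs and otherwise with 100000 resamples (smallest p 1e-05), two-sided, with Benjamini-Hochberg adjustment and a threshold of 0.05. Few pairs set a higher exact limit, such as 0.000977 for 11 pairs. A resampled p at 10 pairs could fall just under its exact limit. Sub-clusters needed 50 atrial cells and types 6 pairs with at least 10 cells on both sides. Intervals are exact 95% binomial (Clopper-Pearson), for counting error only. Tests were tried on simulated data (Python 3.11.15, numpy 2.4.6, scipy 1.17.1, pandas 2.3.3).

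All 10 types are named, in full those past the threshold and the 3 most abundant. Sub-clusters past the threshold are named, at most 3 per type and strain, largest first. Members and lists were chosen with earlier results of these data known. Alternatives were other cell minimums, filters, weights, denominators and scales, experiments or pairs left out, the highest 10% of doublet scores per well left out (type shares, where 0 types passed), and no pairing. Leaving out pairs with ventricular CMs or the cells of called sub-clusters, leaving out 1 CD1 epicardial cluster, leaving out single pairs or ignoring the pairing for sub-clusters, the test of the periods for sub-clusters, and the values of sub-clusters within a stage and atrium or within a well and stage were chosen after seeing the data.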

Additional observations from a re-analysis of the deposited data

Results flagged for a closer look

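In 9 of 39 groups of pairs (a type in the embryonic or postnatal pairs of a strain, with 4 to 10 pairs) 1 pair lay apart from the others by Dixon's test at its 95% critical value. That limit is set for normal values, where chance gives about 5 percent of groups. A group that is mostly 0 passes with 1 pair off 0, so the 9 groups cannot be set against that rate. At CD1 E13.5 the LA minus RA share was 33.7 points for endocardial ECs, -3.03 points for SMCs and -3.03 points for neutrophils; the RA sample held 33 cells, so 1 cell is 3.03%. At CD1 E16.5 dendritic cells were at 0.359 points, from 1 cell in each atrium. Blood cells were at 4.85 points at CD1 P2 and at 1.39 points at C57BL/6 E11.5, both pairs with ventricular CMs in an atrium.

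At C57BL/6 P9 vascular ECs were at -13.0 points and pericytes at 9.77 points, with 65 LA and 299 RA cells. At C57BL/6 P2 neutrophils were at 11.2 points, where the LA sample held 22 cells. One difference between periods passed its test: fibroblast-like sub-cluster 4 of CD1 had a postnatal minus embryonic LA minus RA difference of -30.2 points (exact permutation p = 0.000777, adjusted p = 0.0202), with the RA higher in 8 of 8 postnatal and 4 of 5 embryonic pairs.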

How the results depend on the processing

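Over 17 alternatives the mean difference of vascular ECs stayed below 0, while endocardial ECs ran from -3.84 to 1.11 and epicardial cells from -2.20 to 0.733, neither past the threshold. These ranges are in points, except for the value on centred log2 ratios, which is in log2 units. The number of types past it rose from 0 to 1 with at least 4000 UMIs and at most 20% mitochondrial (vascular ECs, -2.34 points, adjusted permutation p = 0.0440), with centred log2 ratios (pericytes) and without the 5 pairs with ventricular CMs (vascular ECs), and was 0 to 1 with single pairs left out. The cause was not tested.

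The UMI count of 1 type passed, against 2 types with a minimum of 5 cells, 3 with at least 4000 UMIs, 2 without the E9.5 to P3 and 2 without the P2 to P9 experiment, and 0 without the cells of the called sub-clusters (fibroblast-like cells 0.18, adjusted permutation p = 0.1905). The mitochondrial percent of 1 type passed, against 0 with a minimum of 5 cells (endocardial ECs -0.326 points, adjusted permutation p = 0.519), 0 with means (-0.722, adjusted p = 0.0544) and 0 without those cells (-0.683, adjusted p = 0.0610).

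With the pairing ignored (no block by stage), 0 types passed for the UMI count (fibroblast-like cells 0.18, adjusted permutation p = 0.411) and 0 for the mitochondrial percent (endocardial ECs -0.746, adjusted p = 0.713). Sub-clusters past the threshold then numbered 6 in CD1, 3 of them higher in the RA, and 5 in C57BL/6, 3 of them higher in the RA. It changed no call of a type share.

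CD1 had 8 sub-clusters past the threshold, against 2 with a minimum of 20 cells (1 higher in the LA, 1 in the RA), and 3 higher in the RA without the pairs with ventricular CMs. The count was 0 (LA 0, RA 0) without the E9.5 to P3 or the P2 to P9 experiment and, in C57BL/6, without the P5 to P9 experiment (LA 0, RA 0), with fewer pairs in each. Without the P2 to P9 experiment the 9 pairs left a call within reach, and the lowest adjusted p by exact permutation was 0.387. Leaving out single pairs gave 5 to 8 in CD1 (5 without E17.5, P1, P4, P5, P7 or P9; 2 to 4 higher in the LA, 2 to 5 in the RA) and 3 to 7 in C57BL/6 (7 without E17.5; 2 to 3 in the LA, 1 to 4 in the RA). The C57BL/6 sub-clusters without the E10.5 to P4 experiment were not run, since too few pairs remained. Samples of 22 to 50 cells limit the shares of scarce types.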

Other observations

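Sub-clusters of C57BL/6 that missed the threshold were chosen here after their values were seen. Endocardial sub-cluster 1 was 7.93% ± 10.6 of the LA and 29.8% ± 27.3 of the RA endocardial cells, higher in the RA in 8 of 10 pairs (-21.9 points ± 24.9, permutation adjusted p = 0.0638). All 6 postnatal pairs were higher in the RA, at a mean of -38.2 points, against 2.55 points in the 4 embryonic pairs (exact permutation p = 0.00952, adjusted p = 0.0540). Immune sub-cluster 1 was 6.09% ± 3.39 of the LA and 28.2% ± 12.9 of the RA immune cells, higher in the RA in 7 of 8 pairs with 1 tie (-22.1 points ± 11.6, exact permutation p = 0.0156, adjusted p = 0.0638).

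Cells that the authors marked as unsure were also chosen after their values were seen, and were not tested. In CD1 fibroblast-like cells marked as possible valve cells numbered 26 in the LA and 3 in the RA, with more in the LA at 7 of the 10 stages that held any. Endocardial cells with the same mark numbered 9 in the LA and 30 in the RA, with more in the RA at 9 of 14 stages. In C57BL/6 unsure fibroblast-like cells numbered 121 in the LA and 40 in the RA, beside totals of 1165 and 927 fibroblast-like cells. More were in the LA at 7 of the 12 stages that held any, and in the RA at 4.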
